A study of Mus musculus with 18 samples.

Results

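Which transcripts set a tumor exposed to a SHP2 inhibitor apart from one exposed to a PI3K inhibitor was examined in 8 of the 18 tumors of the series. The 8 were every tumor labelled SHP2i (4 tumors, SHP099 alone, replicates 2 to 5) and every tumor labelled PI3Ki (4 tumors, CLR457 alone, replicates 1, 2, 3 and 5), and each was set directly against the other group. Both groups were 4T1 tumors, grown from 300000 cells of a mouse triple-negative mammary carcinoma line in the mammary fat pad of female Balb/c mice that were 8 weeks old at injection and had an intact immune system. Dosing ran from day 7 to day 21, and tumors were taken on day 21, 3 h after the last dose. SHP099 was given at 100 mg/kg 1 time a day and CLR457 at 20 mg/kg 2 times a day by gavage, so the groups differ in compound, dose and schedule together. The 5 Vehicle tumors and 5 Combo tumors (both compounds) of the same experiment gave reference levels. They also entered the filter, the scaling and the estimate of spread, since the fit covered all 18 tumors. Each tumor was 1 whole-tumor library, so fewer cells of a type and less RNA per cell cannot be told apart in any value given here.

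SHP2, the product of Ptpn11, is a tyrosine phosphatase that carries signals from receptor tyrosine kinases to RAS and on to the kinases RAF, MEK and ERK. Active ERK drives transcription of its own feedback inhibitors, such as the dual-specificity phosphatases, the Sprouty proteins and the ETV factors, which are used as a readout of the pathway. PI3K makes a membrane lipid that activates AKT. AKT keeps the FOXO transcription factors out of the nucleus and, with mTORC1, promotes the SREBP factors that switch on sterol and fatty acid synthesis. FOXO target transcripts are therefore known to rise and SREBP target transcripts to fall when PI3K is blocked.

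The total of counts lay between 21604291 and 23544410 in the SHP2i tumors and between 23782011 and 26620104 in the PI3Ki tumors, so every PI3Ki library was deeper. The tables list 22792 genes, and 15282 of them passed the filter on low counts. With edgeR's quasi-likelihood test and Benjamini-Hochberg adjustment over those genes, 1013 (6.63%) passed an adjusted p of 0.05 with an absolute log2 fold change over 1. Of these, 212 (1.39%) were higher and 801 (5.24%) were lower in SHP2i. Without the fold limit, 3738 genes (24.5%) passed, 1779 higher (11.6%) and 1959 lower (12.8%) in SHP2i. For 3793 genes (24.8%) the levels of the 4 SHP2i tumors did not overlap those of the 4 PI3Ki tumors. Distances over the 500 most variable genes, in log2 units, averaged 71.6 between the groups against 26.4 among SHP2i tumors and 39.9 among PI3Ki tumors. Levels are CPM, a gene's counts relative to the total of its library after TMM scaling, scaled to the usual fixed total, tumors are listed in order of replicate number, and log2 fold changes are SHP2i minus PI3Ki with their standard error (SE). Members of gene lists are counted at an adjusted p under 0.05, to be read against the 11.6% and 12.8% above.

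**Figure D1:**
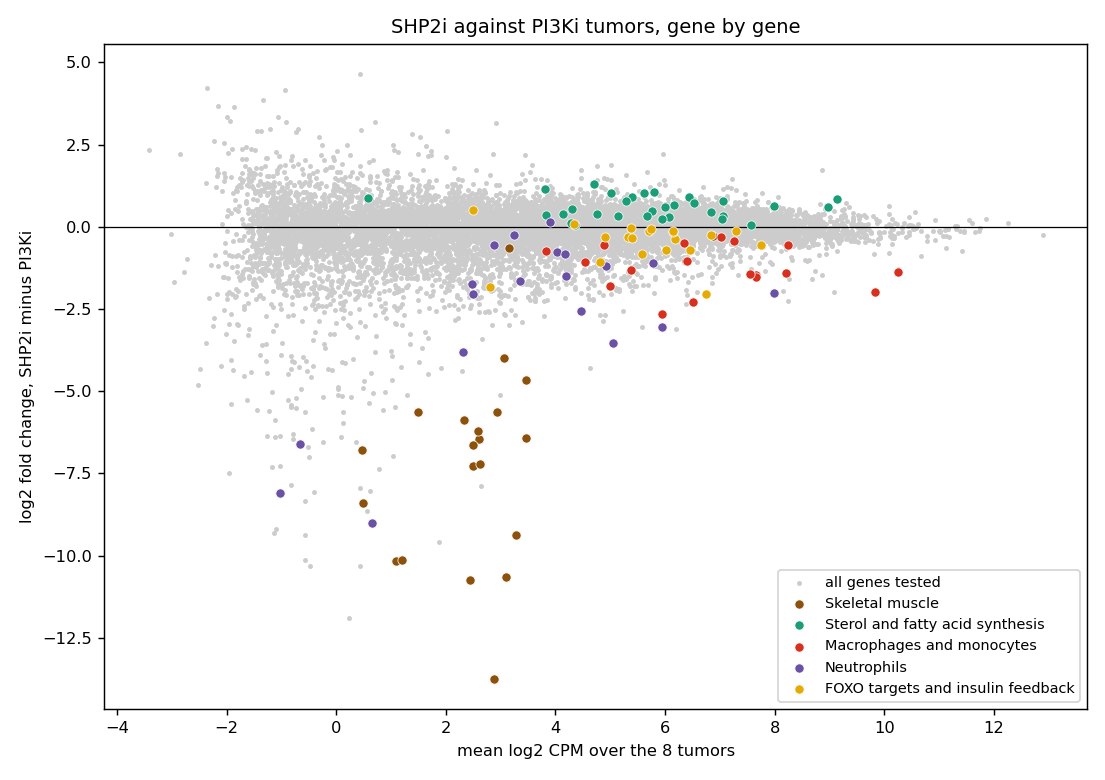
Each point is a gene: the horizontal axis is its mean log2 CPM over the 8 tumors and the vertical axis its log2 fold change, SHP2i minus PI3Ki, with grey for all 15282 genes tested and colors for 5 lists. Skeletal muscle genes reach -13.74, neutrophil genes -9.01, macrophage genes lie below 0 and all 31 sterol and fatty acid genes lie above 0.

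Both drug targets were transcribed in every tumor, and their own transcripts differed between the groups. Ptpn11 (chromosome 5, 121130533 to 121191397, GRCm38.p6) measured 192, 198, 195 and 194 CPM in SHP2i and 143, 132, 176 and 133 CPM in PI3Ki. It was thus higher in every SHP2i tumor, by a log2 fold change of 0.41 ± 0.09 (adjusted p = 0.00457). Both compounds block the protein, so these transcript levels do not measure target inhibition. Of the catalytic subunits of PI3K, the widely expressed Pik3ca (-0.15 ± 0.09, adjusted p = 0.234) and Pik3cb (-0.17 ± 0.13, adjusted p = 0.365) did not pass the test. The leukocyte-enriched Pik3cd fell by 1.64 ± 0.38 on the log2 scale (adjusted p = 0.00525), from 58.7, 92.9, 84.2 and 73.0 CPM in PI3Ki to 19.3, 15.7, 34.0 and 30.04 CPM in SHP2i. Its relative Pik3cg fell by 1.55 ± 0.41 (adjusted p = 0.0124), and so did Pik3r5 and Pik3r6, which code for partners of Pik3cg (by 1.10 and 1.16). These 4 leukocyte genes were lower beside the immune cell markers described further down. The regulatory subunits Pik3r1 (0.69 ± 0.13, adjusted p = 0.00175) and Pik3r3 (1.25 ± 0.23, adjusted p = 0.00101) and the AKT phosphatase Phlpp2 (0.61) were among those higher in SHP2i. In all, 4 of 25 genes of the PI3K, AKT and mTOR list were higher and 4 lower (16% each, against 11.6% and 12.8% of all genes). Of 21 genes of SHP2, its adaptors and the RAS to ERK cascade, Ptpn11 and the RAS exchange factor Sos1 (0.60) were higher, and Mapk3, Gab2, Grb2 and Nras were lower, by 0.43, 0.41, 0.37 and 0.23. The shares were 9.52% higher and 19% lower, against 11.6% and 12.8% of all genes. Leaving out 1 tumor took Pik3r5, Pik3r6 and Nras past the limit, with adjusted p up to 0.11, 0.106 and 0.0844.

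Transcripts driven by ERK were lower in SHP2i for a few feedback genes and not across the list. Of 17 ERK output genes 3 were lower (17.6%, against 12.8% of all genes) and 0 higher. The median log2 fold change was -0.18 against -2.15e-05 over all genes tested. Etv5, an ETS transcription factor (chromosome 16, 22381313 to 22439570), measured 75.6, 67.3, 81.6 and 68.8 CPM in PI3Ki and 29.6, 35.4, 33.2 and 34.4 CPM in SHP2i. The groups stood well apart, with a log2 fold change of -1.15 ± 0.14 (adjusted p = 5.13e-05). Dusp6, the phosphatase that removes phosphate from ERK in the cytoplasm (chromosome 10, 99263231 to 99267489), measured 345, 283, 303 and 285 CPM in PI3Ki against 161, 176, 149 and 204 CPM in SHP2i. It fell by 0.82 ± 0.13 (adjusted p = 0.000465). Dusp5, its nuclear counterpart, fell by 0.76 ± 0.22 (adjusted p = 0.0195), a call lost without SHP2i replicate 2 or 3 (adjusted p up to 0.0583). In the Vehicle tumors Etv5 ranged from 50.5 to 76.7 CPM and Dusp6 from 259 to 290 CPM, so the PI3Ki tumors lay near Vehicle and the SHP2i tumors below it. Against Vehicle, Etv5 differed by -0.95 in SHP2i (adjusted p = 0.00029) and by 0.20 in PI3Ki (adjusted p = 0.45), and Dusp6 by -0.69 and 0.13. Not every reporter of the pathway moved this way: Spry4 (0.40 ± 0.18, adjusted p = 0.111) and Ccnd1, which codes for cyclin D1 (0.11 ± 0.14, adjusted p = 0.594), did not pass the test.

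The immediate early genes, which serum and growth factors induce within minutes, were lower in SHP2i for 5 of 16 members and higher for 0, with a median of -0.41. The members were Btg2 (-1.24 ± 0.29, adjusted p = 0.00562), Zfp36, which codes for an mRNA-destabilizing protein (-0.89), Ier2 (-0.65), the AP-1 subunit Junb (-0.38) and Klf6 (-0.32). Btg2 measured 39.2, 48.6, 36.7 and 35.6 CPM in PI3Ki and 14, 13.8, 19.99 and 20.1 CPM in SHP2i, with Vehicle between 21.1 and 32.2 CPM. Vehicle therefore lay between the groups for Btg2. For Ier2 the Vehicle range, 45.5 to 61.2 CPM, covered 2 of the PI3Ki tumors and none of the SHP2i tumors. Leaving out a single SHP2i tumor moved the count of 5 to between 3 (without replicate 2 or replicate 3) and 8 (without replicate 4). With a macrophage or a neutrophil covariate, both added after the values were seen, 1 of the 16 passed. The SHP2i and PI3Ki tumors did not overlap in either covariate. Treatment and cell content are therefore not cleanly separated wherever these 2 covariates are used. Junb and Klf6 lost the call without any of several tumors (adjusted p up to 0.145 and 0.102).

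**Figure D2:**
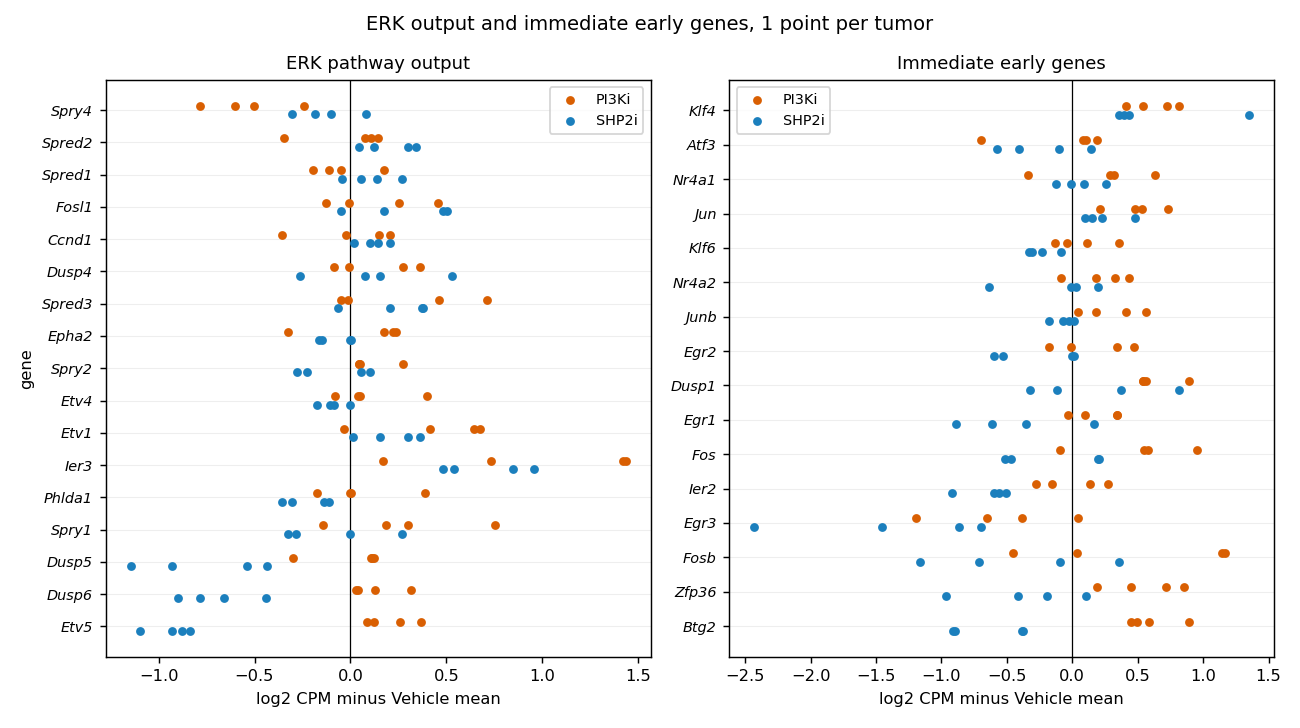
ERK output genes (left) and immediate early genes (right): the horizontal axis is log2 CPM minus the Vehicle mean, and each point is 1 of the 4 PI3Ki (orange) or 4 SHP2i (blue) tumors. Etv5 and Dusp6 have all blue points left of all orange points, while for Spry4 and Ccnd1 the colors overlap.

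Genes of sterol and fatty acid synthesis had, among the 27 lists, the highest share of members higher in SHP2i: 20 of 31 passed the test as higher and 0 as lower, all 31 fold changes were positive, and the median was 0.59. For 19 of the 31 the groups did not overlap, against 24.8% of all genes. They included genes of the mevalonate steps (Hmgcs1, Mvk, Idi1, Fdps), the late sterol steps (Fdft1, Sqle, Lss, Cyp51, Msmo1, Nsdhl, Hsd17b7, Sc5d), of fatty acid synthesis and desaturation (Acaca, Scd2, Fads1, Fads2), and the regulator Srebf2.

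The 250 bases before the start of 3 of these genes are shown, as RefSeq annotates the start on GRCm38.p6, because SREBP factors are known to act at sterol gene promoters beside NF-Y, a factor that binds CCAAT. Fads2 and Msmo1 were taken by lowest p among members whose stretch lay clear of the gene. Hmgcs1 was added by choice, outside that rule. Capitals mark CCAAT on either strand (ATTGG on the other) and the sterol response core CACCCCAC. The stretches lie at chr13:119690101-119690350 (plus strand), chr8:64733579-64733828 (minus strand) and chr19:10101504-10101753 (minus strand).
Hmgcs1: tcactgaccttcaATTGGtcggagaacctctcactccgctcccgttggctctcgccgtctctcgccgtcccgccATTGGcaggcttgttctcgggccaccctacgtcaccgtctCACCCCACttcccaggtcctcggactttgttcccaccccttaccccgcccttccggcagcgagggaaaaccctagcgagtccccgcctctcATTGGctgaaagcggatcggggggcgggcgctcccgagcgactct
Msmo1: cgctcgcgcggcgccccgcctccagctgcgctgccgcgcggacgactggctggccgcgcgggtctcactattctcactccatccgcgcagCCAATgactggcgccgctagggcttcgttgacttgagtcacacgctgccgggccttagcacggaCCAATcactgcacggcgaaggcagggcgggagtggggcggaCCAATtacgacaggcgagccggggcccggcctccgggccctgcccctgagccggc
Fads2: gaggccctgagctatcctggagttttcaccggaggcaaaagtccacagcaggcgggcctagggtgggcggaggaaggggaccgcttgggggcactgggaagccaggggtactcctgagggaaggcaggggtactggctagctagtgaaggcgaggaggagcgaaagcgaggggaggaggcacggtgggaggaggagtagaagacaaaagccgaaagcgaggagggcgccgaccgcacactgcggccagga
Hmgcs1 held 3 CCAAT matches and, 136 bases before the start, 1 sterol core, Msmo1 held 3 CCAAT matches, and Fads2 held neither. Over the 300-base windows of the list (25 windows of 20 genes), CCAAT occurred in 18 (72%) against 37.4% of all 32851 windows, and the sterol core in 1 (4%) against 2.87%. That core was the one in Hmgcs1, the gene added by choice. These letter matches describe the windows and were searched after the values of the genes were known. The members differ in them although they moved the same way: Fads2, without a match, had the largest fold change of the list.

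Fads2, which codes for the delta-6 desaturase of fatty acids (chromosome 19, 10062765 to 10101503), measured 20.2, 15.4, 19.6 and 11.9 CPM in PI3Ki and 46.0, 48.8, 33.6 and 38.5 CPM in SHP2i. Every SHP2i tumor was above every PI3Ki tumor (1.31 ± 0.17, adjusted p = 6.47e-05). Sqle, squalene epoxidase, a rate-limiting enzyme of cholesterol synthesis (chromosome 15, 59315092 to 59331193), measured 73.4, 57.9, 68.2 and 53.7 CPM in PI3Ki and 132, 125, 115 and 108 CPM in SHP2i (0.92 ± 0.12, adjusted p = 6.74e-05). Lss, lanosterol synthase, and Msmo1, a sterol methyl oxidase, were higher by 1.04 ± 0.15 (adjusted p = 0.000149) and 0.90 ± 0.14 (adjusted p = 0.000245). Scd2, a stearoyl-CoA desaturase rose from 466, 346, 472 and 413 CPM to 774, 905, 712 and 679 CPM (0.85 ± 0.13, adjusted p = 0.000268). For the other 15 genes that passed, fold changes ran from 0.29 for Fdft1 to 1.15 for Hsd17b7. Fdft1 lost the call without any of 5 tumors (adjusted p up to 0.139).

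Set beside Vehicle, the PI3Ki tumors lay below and the SHP2i tumors near it. The median of the 31 genes was -0.44 for PI3Ki and -0.00808 for SHP2i, both against the same Vehicle tumors. Sqle ranged from 102 to 118 CPM in Vehicle, and differed from it by -0.79 in PI3Ki (adjusted p = 0.00037) and by 0.13 in SHP2i (adjusted p = 0.45). The mean of the list per tumor, in log2 CPM relative to Vehicle, lay between -0.71 and -0.38 in PI3Ki and between -0.08 and 0.16 in SHP2i. In Combo, whose tumors also received CLR457, that mean lay between -0.93 and -0.33. Not every value was low in Combo. Scd2 averaged 697 CPM there, against 424 CPM in PI3Ki, 618 CPM in Vehicle and 767 CPM in SHP2i. The summed level of the list ranged from 2238 to 4789 CPM in Combo, from 2071 to 2613 CPM in PI3Ki and from 3388 to 3985 CPM in SHP2i. Leaving out PI3Ki replicate 5 reduced the 20 genes to 14, and no other single tumor moved the count below that. A covariate for neutrophil genes, added after the values were seen, left 10 of 31.

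FOXO target genes moved the other way: 9 of 20 were lower in SHP2i and 0 higher, with a median of -0.32. Gadd45a, a stress and growth arrest gene (chromosome 6, 67035096 to 67037407), measured 323, 177, 175 and 220 CPM in PI3Ki and 52.2, 54.7, 50.0 and 58.8 CPM in SHP2i. It fell by 2.05 ± 0.29 (adjusted p = 0.000133), with Vehicle between 78 and 117 CPM, so the groups lay on either side of Vehicle. Pdk4, the kinase that shuts pyruvate dehydrogenase (chromosome 6, 5483351 to 5496278), measured 10.8, 25.9, 10.4 and 8.31 CPM in PI3Ki and 3.74, 5.38, 2.96 and 3.54 CPM in SHP2i (-1.83 ± 0.42, adjusted p = 0.0052). Ccng2, a cyclin of non-dividing cells, fell by 0.69 ± 0.10 (adjusted p = 0.000252), from 110, 113, 105 and 119 CPM to 59.6, 73.6, 78.9 and 64.1 CPM, with Vehicle between 64.6 and 78.2 CPM. The remaining members that passed were the ubiquitin ligase gene Fbxo32 (-1.08), the mitophagy kinase gene Pink1 (-0.82), the pro-apoptotic Bcl2l11 (-0.70), Txnip (-0.57), the insulin receptor gene Insr (-0.38) and the CDK inhibitor gene Cdkn1b (-0.26). For Txnip, Insr and Cdkn1b the adjusted p rose to as much as 0.101, 0.0683 and 0.0727 when 1 tumor was left out. Against Vehicle the list's median was 0.40 in PI3Ki and 0.06 in SHP2i. Per tumor the mean of the list lay between 0.45 and 0.56 in PI3Ki, between -0.05 and 0.15 in SHP2i and between 0.64 and 1.01 in Combo.

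Skeletal muscle expresses several FOXO genes, among them Fbxo32 and Pdk4, and muscle transcripts were high in the PI3Ki tumors. The mean of 21 muscle genes relative to Vehicle lay between 4.40 and 5.83 in PI3Ki, between -1.21 and -0.83 in SHP2i and between -1.45 and 1.44 in Combo. Across the 10 Vehicle and Combo tumors, 119 genes followed muscle content (correlation over 0.8). None of the 20 FOXO genes and none of the 31 sterol genes was among them. The 21 muscle genes summed to at most 228.5 CPM in Vehicle and 200.8 CPM in Combo, against 1154 to 2567 CPM in PI3Ki. With so little muscle RNA there, the search could not decide on a muscle share in PI3Ki. With the muscle mean as a covariate, 0 of the 20 FOXO genes (median -0.381) and 0 of the 31 sterol genes (median 1.00) passed, and that fit called no gene of the table past the fold limit. The part of muscle RNA in either difference was not tested otherwise.

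**Figure D3:**
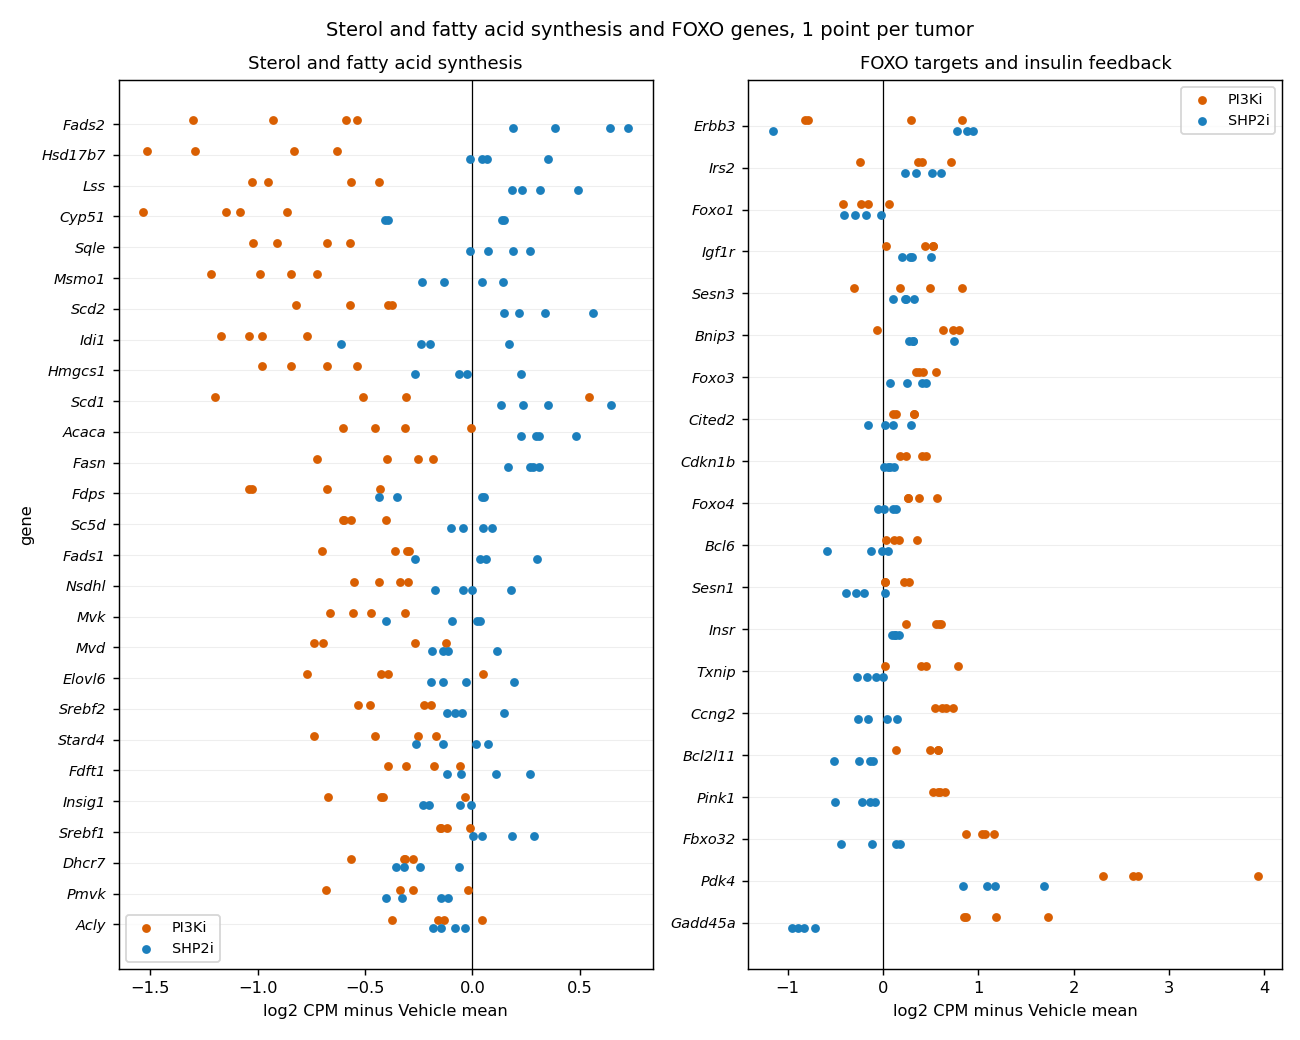
Sterol and fatty acid synthesis genes (27 of the 31, left) and 20 FOXO and insulin feedback genes (right), with log2 CPM minus the Vehicle mean on the horizontal axis and 1 point per PI3Ki (orange) or SHP2i (blue) tumor. Sterol genes lie mostly left of 0 in PI3Ki and around 0 in SHP2i, while Gadd45a, Pdk4, Fbxo32 and Pink1 are right of 0 in PI3Ki.

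The largest differences in the data were skeletal muscle transcripts, which 19 of 21 listed genes showed as lower in SHP2i, with a median of -6.64. Muscle genes, or a gene that overlaps one, supplied all 15 of the largest decreases among genes with a mean log2 CPM over 1 whose groups did not overlap. Acta1, skeletal muscle actin (chromosome 8, 123891758 to 123894775), measured 336, 437, 376 and 123 CPM in PI3Ki and 0.161, 0.137, 0.375 and 0.0895 CPM in SHP2i (-10.65 ± 1.72, adjusted p = 0.000432). Myh4, the myosin heavy chain of fast fibers, had 18887, 14225, 10742 and 7335 counts in PI3Ki and 2, 1, 0 and 0 counts in SHP2i, a ratio of 15900 after scaling with a 95% interval for counting error of 5450 to 77200. Summed over the 21 genes, muscle transcripts made up a median of 2436 CPM (1154 to 2567) in PI3Ki and 126 CPM (115 to 137.7) in SHP2i. The sum ranged from 112 to 228.5 CPM in Vehicle and from 112.3 to 200.8 CPM in Combo, so by this sum the SHP2i tumors lay within the Vehicle range and the PI3Ki tumors above every other tumor. By the mean of log2 levels, 3 of the 4 SHP2i tumors (replicates 3, 4 and 5, at -1.21, -1.04 and -1.16) lay below the lowest Vehicle tumor (-0.997), and Tnni2 (-2.06, adjusted p = 0.0139) and Tnnt3 (-1.78, adjusted p = 0.0333) passed as lower in SHP2i than in Vehicle. Other genes of the set were the calcium pump gene Atp2a1 (-9.37), the troponin genes Tnnc2, Tnni2 and Tnnt3 (-7.21, -6.47 and -6.44), Ryr1 (-4.67) and Neb (-3.98). Atp2a1 overlaps Rabep2, and Ckm (-10.73) overlaps A930016O22Rik (-9.60), so the counts of each pair are not resolved. Over the muscle windows, 16 of 20 (80%) held an E-box (CANNTG) against 72.3% of all windows, and 1 (5%) held the MEF2 site CTANNNNTAG against 3.69%. With the muscle mean as a covariate over all 18 tumors, no gene passed in either direction (2174 at an unadjusted p under 0.05), and the values of that covariate in PI3Ki did not overlap those of any other group, so group and muscle content cannot be told apart in that fit.

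Myeloid genes were lower in the SHP2i tumors. Of 19 macrophage and monocyte genes 12 passed as lower and 0 as higher, all 19 fold changes were negative, and the median was -1.30. Itgam, the integrin chain CD11b (chromosome 7, 128062640 to 128118491), measured 192, 301, 198 and 144 CPM in PI3Ki and 36.8, 29.3, 54.7 and 50.99 CPM in SHP2i (-2.28 ± 0.36, adjusted p = 0.000358). Ccr2, the chemokine receptor of inflammatory monocytes (chromosome 9, 124101918 to 124109140), fell from 154, 233, 161 and 111 CPM to 25.5, 11.8, 39.1 and 28.3 CPM (-2.65 ± 0.48, adjusted p = 0.000963). Lyz2, lysozyme, fell by 1.99 ± 0.37 (adjusted p = 0.00132), the complement genes C1qa, C1qb and C1qc by 1.42, 1.52 and 1.45, and Csf1r, the receptor that macrophages depend on, by 1.42. Its ligand Csf1 was higher in SHP2i (0.61 ± 0.13, adjusted p = 0.00365). Against Vehicle, Itgam differed by -2.12 in SHP2i (adjusted p = 0.00097) and by 0.16 in PI3Ki (adjusted p = 0.85), and Ccr2 by -2.42 and 0.23. Over the list the medians against Vehicle were -0.99 for SHP2i and 0.16 for PI3Ki. Not all members passed: the scavenger receptor gene Cd163 (-0.43 ± 0.56, adjusted p = 0.6) and the mannose receptor gene Mrc1 (-0.56 ± 0.48, adjusted p = 0.406) overlapped between the groups. The summed level of the 19 genes ranged from 1954 to 3886 CPM in SHP2i, from 5033 to 11570 CPM in PI3Ki and from 5134 to 7284 CPM in Vehicle. With a covariate for neutrophil genes, added after the values were seen, 4 of the 19 passed as lower and the median was -0.409.

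Genes of antigen presentation were lower in SHP2i mainly for class II. Of 10 MHC class II genes, 7 were lower in SHP2i and 0 higher, with a median of -1.34, while of 12 MHC class I genes H2-T23 alone passed (-0.43), with a median of -0.28. The difference between the classes was not tested. H2-Eb1 (chromosome 17, 34305867 to 34316674), a class II beta chain, measured 814, 994, 637 and 562 CPM in PI3Ki and 204, 125, 260 and 406 CPM in SHP2i (-1.60 ± 0.39, adjusted p = 0.00765). H2-Aa, the alpha chain of the I-A molecule, fell by 1.46 ± 0.39 (adjusted p = 0.013), from 861, 1040, 741 and 625 CPM to 233, 154, 317 and 484 CPM. Cd74, the invariant chain, fell by 1.29, and H2-DMa, H2-Ab1 and H2-DMb2 by 1.38, 1.35 and 1.32. H2-Ob, which B cells express, fell by 4.12 ± 1.40 (adjusted p = 0.041). Class II promoters are known for a Y box, the CCAAT element that lies close to the start. It is shown in capitals in the 250 bases before H2-Aa (chr17:34287824-34288073, minus strand) and H2-Eb1 (chr17:34305617-34305866, plus strand), again from RefSeq on GRCm38.p6.
H2-Aa: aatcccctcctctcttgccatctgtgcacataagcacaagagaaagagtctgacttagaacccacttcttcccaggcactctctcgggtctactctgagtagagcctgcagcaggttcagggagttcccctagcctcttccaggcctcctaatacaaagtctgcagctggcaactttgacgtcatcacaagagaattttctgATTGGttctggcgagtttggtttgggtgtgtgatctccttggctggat
H2-Eb1: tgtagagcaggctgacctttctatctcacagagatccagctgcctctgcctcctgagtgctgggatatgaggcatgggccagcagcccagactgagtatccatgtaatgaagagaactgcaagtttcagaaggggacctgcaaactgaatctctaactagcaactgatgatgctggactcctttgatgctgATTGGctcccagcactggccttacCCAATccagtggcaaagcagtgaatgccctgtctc
The match began 48 bases before the start in H2-Aa, and 59 and 35 bases before it in H2-Eb1. CCAAT occurred in 7 of 8 windows of the 7 class II genes in the table (87.5%) against 37.4% of all windows. Without SHP2i replicate 2, or without replicate 3, 4 of the 10 class II genes passed in place of 7. Cd74, H2-Ab1, H2-Ob and H2-T23 each lost the call without at least 1 tumor, with adjusted p up to 0.056, 0.0648, 0.146 and 0.12. With a macrophage or a neutrophil covariate, both added after the values were seen, 0 of the 10 passed. Neither covariate overlapped between SHP2i and PI3Ki, so the lost calls do not tell cell content from treatment.

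Other immune lists differed for some of their members. Of 13 dendritic cell genes 6 were lower, among them Clec9a and Xcr1 of the cross-presenting subset (-1.98 ± 0.26, adjusted p = 8.72e-05, and -2.10 ± 0.52, adjusted p = 0.00762) and Siglech of the plasmacytoid subset (-2.25). Fscn1 (0.55) and Zbtb46 (0.50) were higher. Fscn1 ranged from 351 to 703 CPM, while all 13 genes together summed to between 639.3 and 850.3 CPM in these tumors. Which cells Fscn1 RNA came from was not tested. With the macrophage or the neutrophil covariate 2 of the 13 passed as lower and 1 as higher. Clec9a measured 10.02, 7.94, 7.03 and 5.91 CPM in PI3Ki against 1.85, 1.64, 2.37 and 1.93 CPM in SHP2i. Among 21 T cell and NK cell genes 3 were lower, near the 12.8% of all genes: the NK receptor genes Klrb1c (-3.25 ± 0.38, adjusted p = 3.53e-05) and Klrk1 (-2.0 ± 0.33, adjusted p = 0.000518) and the checkpoint gene Ctla4 (-0.72 ± 0.15, adjusted p = 0.00292). Klrb1c measured 10.9, 7.35, 6.47 and 5.95 CPM in PI3Ki and 0.925, 0.456, 0.875 and 0.940 CPM in SHP2i. The T cell gene Cd3d (-1.80 ± 0.68, adjusted p = 0.0602) did not pass. Of the 21 fold changes 20 were negative, with a median of -0.96. DESeq2 counted 7 of the 21 as lower, limma voom with quality weights 4, and the 8 tumors alone or replicate number as a block 8 each. The summed level of the 21 genes ranged from 106.7 to 189.8 CPM in SHP2i, from 204.4 to 267.6 CPM in PI3Ki and from 189.7 to 298.2 CPM in Vehicle.

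Neutrophil genes were lower for 10 of 19 members, with a median of -1.74, and 1 PI3Ki tumor stood apart. Ngp, a granule protein of immature neutrophils, had 65, 5628, 176 and 236 counts in PI3Ki and 0, 1, 3 and 7 counts in SHP2i, so replicate 2 stood far above the other PI3Ki tumors. Mmp9, a gelatinase stored in neutrophil granules (chromosome 2, 164940326 to 164955850), measured 507, 859, 359 and 428 CPM in PI3Ki and 131, 123, 196 and 84.9 CPM in SHP2i (-2.01 ± 0.36, adjusted p = 0.000881). Trem1, a receptor that amplifies myeloid inflammation, fell by 2.03 ± 0.39 (adjusted p = 0.0014). Against Vehicle the list's median was -0.64 in SHP2i and 1.14 in PI3Ki, so the groups lay on either side of Vehicle. Mmp9 differed from Vehicle by -0.64 in SHP2i (adjusted p = 0.21) and by 1.37 in PI3Ki (adjusted p = 0.021). For Trem1 the values were -1.73 (adjusted p = 0.0063) and 0.30 (adjusted p = 0.71). Without PI3Ki replicate 2, 6 of the 19 genes passed. With the macrophage covariate 1 passed as lower and 2 as higher, with a median of -0.124. B cell genes varied widely among the PI3Ki tumors: Cd79b, a chain of the B cell receptor complex, measured 0.639, 2.65, 16.3 and 41.0 CPM in PI3Ki and 1.17, 0.730, 0.625 and 0.627 CPM in SHP2i. The groups overlapped for all 11 B cell and plasma cell genes although 3 passed, Cd79b and Cr2 among them, and 0 passed without PI3Ki replicate 5 or without any 1 of the SHP2i tumors (adjusted p up to 0.162).

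**Figure D4:**
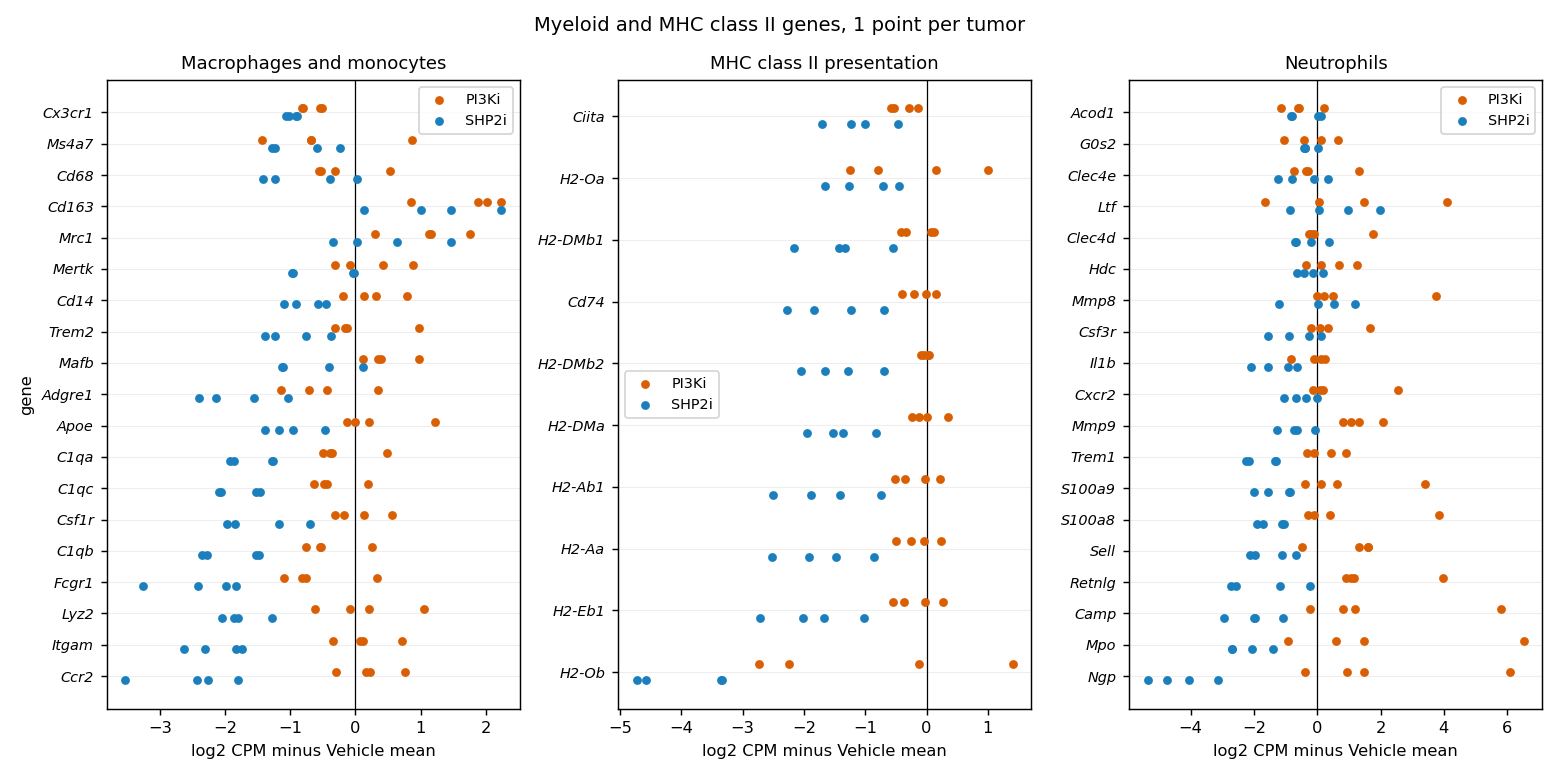
Macrophage and monocyte, MHC class II and neutrophil genes, with log2 CPM minus the Vehicle mean on the horizontal axis and 1 point per PI3Ki (orange) or SHP2i (blue) tumor. SHP2i points lie left of 0 for Itgam, Ccr2 and H2-Eb1, and PI3Ki replicate 2 forms the far right point of Ngp, S100a8 and S100a9.

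Growth factor ligands and cytokines differed gene by gene. Of 28 ligands of receptor tyrosine kinases 5 were higher (17.9%, against 11.6% of all genes) and 2 lower (7.14%, against 12.8%) in SHP2i. The 2 were ligands of the EGF receptor: Tgfa measured 36.1, 19.2, 28.7 and 33.1 CPM in PI3Ki and 11.6, 12.1, 13.3 and 11.3 CPM in SHP2i (-1.28 ± 0.17, adjusted p = 8.96e-05), and Hbegf fell by 0.90 ± 0.15 (adjusted p = 0.000534). The receptor gene Egfr itself was higher in SHP2i (0.60 ± 0.15, adjusted p = 0.00717). Among the ligands that were higher, Igf2, insulin-like growth factor 2 (chromosome 7, 142650768 to 142666816), measured 39.9, 36.1, 30.9 and 16.4 CPM in PI3Ki and 132, 122, 81.6 and 235 CPM in SHP2i (2.21 ± 0.33, adjusted p = 0.000208). Igf2 overlaps Igf2os on its other strand (3.17 ± 0.33, adjusted p = 2.01e-05), and the counting's strand setting is not given in the sources used here, so reads of the pair cannot be told apart. In Vehicle Igf2 ranged from 39.4 to 65.4 CPM and in Combo from 166 to 382 CPM. Gdnf (1.42 ± 0.28, adjusted p = 0.0017) and Csf1 (0.61) completed the set together with a pair of PDGF chains.

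The PDGF family was singled out because the study follows PDGF receptor beta after SHP2 inhibition. The study measures phosphorylation of the receptor protein and its binding to a PI3K subunit, which RNA levels do not show. It reports that RNA of the PDGF receptors and ligands did not differ between its conditions, at limits that include a fold change. The members that passed here did so below the log2 fold limit of 1. Pdgfb measured 74.99, 72.3, 69.2 and 53.8 CPM in PI3Ki and 104, 123, 96.0 and 99.7 CPM in SHP2i (0.65 ± 0.11, adjusted p = 0.000842). Pdgfrb measured 133, 126, 165 and 87.2 CPM in PI3Ki and 201, 249, 173 and 237 CPM in SHP2i (0.75 ± 0.21, adjusted p = 0.0172). Pdgfa was higher by 0.54 ± 0.16 (adjusted p = 0.0221), with SHP2i replicate 4 (175 CPM) inside the PI3Ki range. The call was lost for Pdgfrb without PI3Ki replicate 5 or SHP2i replicate 3 (adjusted p up to 0.0561) and for Pdgfa without any of 5 tumors (up to 0.0632). Against Vehicle, Pdgfrb differed by 0.28 in SHP2i (adjusted p = 0.37) and by -0.47 in PI3Ki (adjusted p = 0.21), neither of which passed, and Pdgfb by 0.06 (adjusted p = 0.76) and -0.59 (adjusted p = 0.0038). Adjusted p-values for Pdgfc, Pdgfd and Pdgfra were 0.0661, 0.976 and 0.983. Of 29 receptor tyrosine kinase genes, Pdgfrb, Egfr, Tyro3 (0.53) and Erbb2 (0.44) were higher, and Csf1r, Ephb2 (-0.87), Mertk (-0.73) and Insr (-0.38) were lower. Each direction held 13.8% of the list, near the 11.6% and 12.8% of all genes. Erbb2 did not pass without PI3Ki replicate 2 (adjusted p = 0.0525), Ephb2 without PI3Ki replicate 1 or 5 (up to 0.0634), or Mertk without any of 4 tumors (up to 0.17).

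Of 36 chemokine and cytokine genes 5 were lower (13.9%, near the 12.8% of all genes) and 2 higher (5.56%, below the 11.6%). Tgfb1 measured 148, 169, 149 and 142 CPM in PI3Ki and 91.0, 111, 108 and 101 CPM in SHP2i (-0.57 ± 0.08, adjusted p = 8.96e-05). Ccl24, an eosinophil chemokine, fell by 2.07 ± 0.41 (adjusted p = 0.00199), Spp1, osteopontin, by 0.88 ± 0.17 (adjusted p = 0.00197), Cxcl16 by 0.88 and Il1b by 1.11 (adjusted p up to 0.0748 without 1 of 4 tumors). Lif was higher by 0.84 ± 0.17 (adjusted p = 0.0018), beside Csf1. For Ccl24 Vehicle (7.55 to 21.0 CPM) lay with SHP2i (5.31 to 19.6 CPM) and below PI3Ki (36.2 to 65.5 CPM), whereas for Tgfb1 Vehicle (158 to 169 CPM) lay above every SHP2i tumor.

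Genes of the BCL2 family, which holds inhibitors and activators of apoptosis, were lower for 6 of 13 members and higher for 1. Mcl1, an anti-apoptotic gene, measured 331, 460, 311 and 340 CPM in PI3Ki and 194, 205, 242 and 227 CPM in SHP2i (-0.73 ± 0.12, adjusted p = 0.000625). Bcl2a1b, an anti-apoptotic gene of leukocytes with near-identical copies that counting can split, fell by 1.79 ± 0.25 (adjusted p = 0.000114). The other 4 were pro-apoptotic BH3-only genes: Pmaip1 (-0.99), Bmf (-0.90), Bcl2l11 (-0.70) and Bbc3 (-0.55). Bid was higher (0.35). Bbc3 lost the call without any of 5 tumors (adjusted p up to 0.0898). Genes on both sides of apoptosis were thus lower together.

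In the vessel, pericyte and fat lists some members passed. Of 22 endothelial genes 6 were higher and 1 lower in SHP2i: Gpihbp1, the capillary anchor of lipoprotein lipase, measured 10.5, 10.3, 10.1 and 10.4 CPM in PI3Ki and 17.3, 34.9, 19.8 and 22.3 CPM in SHP2i (1.19 ± 0.23, adjusted p = 0.00153). The tip cell gene Esm1 was lower (-1.20 ± 0.27, adjusted p = 0.00381). The others were Egfl7 (0.70), Cdh5 (0.66), Apln (0.65), Sox17 (0.60) and Eng (0.41), and Gpihbp1 in Vehicle (21.5 to 28.3 CPM) lay above PI3Ki. Without SHP2i replicate 3, or without PI3Ki replicate 5, the 6 became 4 (3 with the macrophage and 2 with the neutrophil covariate), and Apln and Sox17 had adjusted p up to 0.0782 and 0.112 without 1 tumor. Among 13 pericyte and smooth muscle genes Pdgfrb and Mcam (0.45) were higher and Tagln (-1.16) and Kcnj8 (-1.15) lower. Each direction held 15.4% of the list, near the 11.6% and 12.8% of all genes. Mcam did not pass without PI3Ki replicate 5 or SHP2i replicate 3 (adjusted p up to 0.0869), nor Tagln without PI3Ki replicate 2 (0.0844). Of 16 adipocyte genes Plin4 (1.43 ± 0.49, adjusted p = 0.0419) and Pparg (0.99 ± 0.29, adjusted p = 0.0189) were higher. That is 12.5% of the list, near the 11.6% of all genes, and 0 passed without PI3Ki replicate 1 or SHP2i replicate 4. The summed adipocyte level ranged from 1101 to 1503 CPM in SHP2i and from 513.7 to 1200 CPM in PI3Ki, beside the sterol and fatty acid genes that fat also expresses. Its part in the difference of those genes was not tested.

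In several lists few or no members passed. Of 19 fibroblast and matrix genes 0 passed, and of 16 epithelial carcinoma genes 0 passed with edgeR. At an unadjusted p under 0.05 the fibroblast list held 1 lower gene and the epithelial list 2 higher and 2 lower. DESeq2 counted 1 lower gene in each list, and limma voom with quality weights 1 higher and 1 lower fibroblast gene and 4 lower epithelial genes. Krt8 (-0.25 ± 0.15, adjusted p = 0.222) and Krt18 (-0.45 ± 0.18, adjusted p = 0.0706), keratins that mark the 4T1 cells as epithelial, were at 276 CPM or more in all 8 tumors. Without PI3Ki replicate 5, 6 of the epithelial genes passed as higher in SHP2i. Of 34 interferon-stimulated genes Ddx58 alone passed (0.45), of 18 ATF4 targets Slc7a5 (0.58), of 30 cell cycle genes Cdc6 (0.60) and Mcm2 (0.43), and of 22 hypoxia and glycolysis genes Pfkfb4 (-0.90), Slc16a3 (-0.93) and Ankrd37 (-0.65). The 3 hypoxia and glycolysis genes made up 13.6% of their list, near the 12.8% of all genes that were lower. With voom and quality weights 13 interferon genes passed as higher. Of the cell cycle genes 0 passed without PI3Ki replicate 1, 2 or 5 or SHP2i replicate 2, 3 or 4. Slc7a5, Ankrd37 and Slc16a3 also lost the call without at least 1 tumor (adjusted p up to 0.0679, 0.0613 and 0.188).

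**Figure D5:**
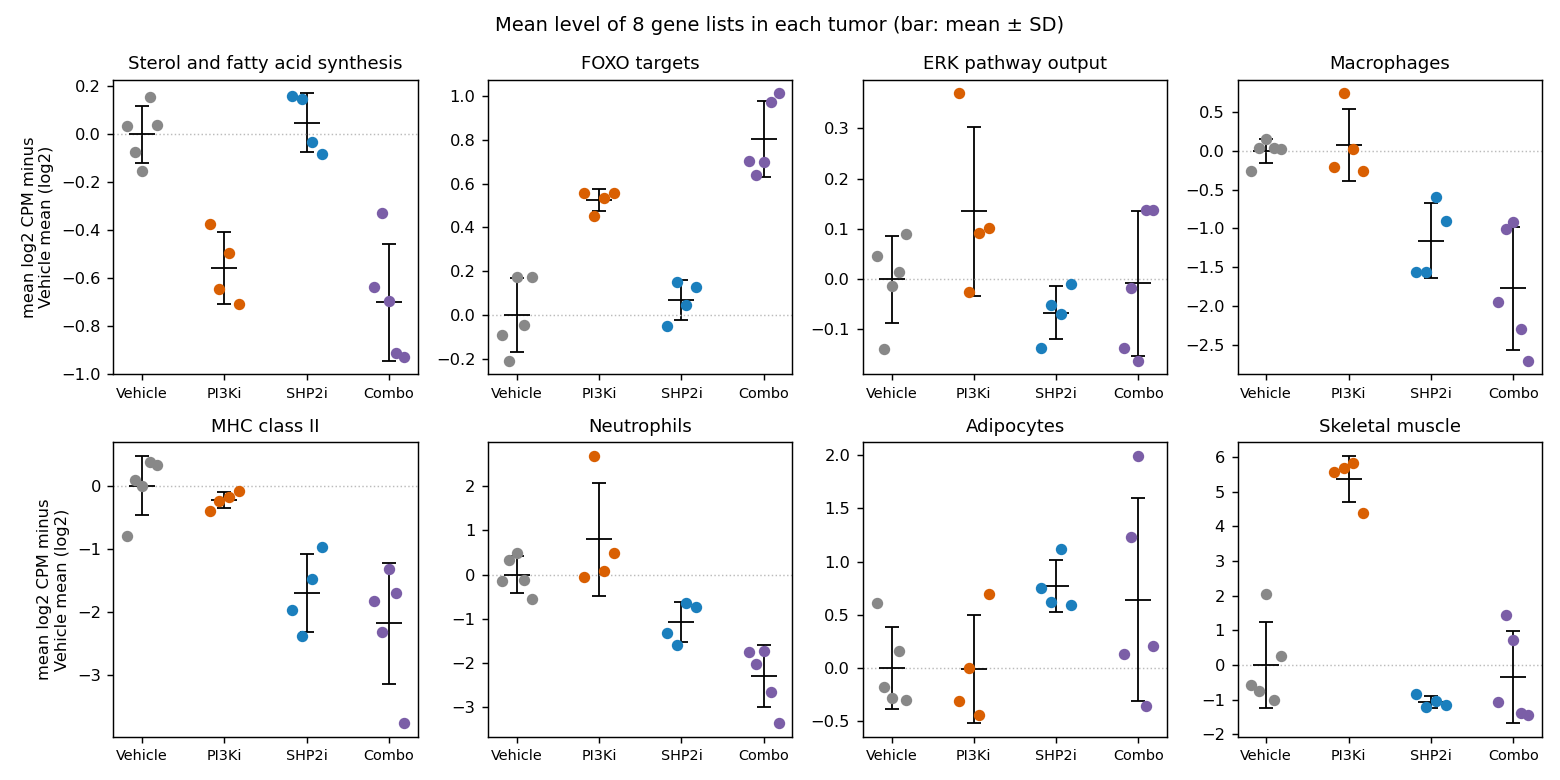
Mean log2 CPM of 8 gene lists in each tumor relative to the Vehicle mean, by group, with 1 point per tumor and a bar for the mean ± SD (n = 5, 4, 4 and 5). Sterol and muscle means set the PI3Ki tumors apart from SHP2i and Vehicle, macrophage and MHC class II means set the SHP2i tumors apart from PI3Ki and Vehicle, and the ERK output means overlap.

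Outside the lists, the genes with the largest increases in SHP2i among well expressed genes that did not overlap were, after Igf2os, Reg1, a secreted lectin of the pancreas and injured epithelia (2.90 ± 0.50, adjusted p = 0.000674), the protease gene Tmprss2 (2.45) and Lrat, which makes retinyl esters (2.32). Reg1 measured 2.12, 0.882, 1.85 and 1.35 CPM in PI3Ki and 8.13, 5.89, 16.1 and 16.4 CPM in SHP2i. Lrat overlaps Rbm46os (2.27), whose values it shares. Hp, haptoglobin, an acute phase protein (chromosome 8, 109575128 to 109579172), measured 194, 397, 177 and 285 CPM in PI3Ki and 742, 1006, 858 and 865 CPM in SHP2i (1.72 ± 0.33, adjusted p = 0.00145). Igfbp5, an IGF-binding protein, measured 16.5, 24.4, 38.1 and 49.3 CPM in PI3Ki and 162, 53.6, 49.5 and 142 CPM in SHP2i (1.66 ± 0.47, adjusted p = 0.0159), so the lowest SHP2i tumor was barely above the highest PI3Ki tumor. The set was completed by Pwwp3b (2.30), Klhdc7a (2.22), Rassf9 (2.18), Rhbdl3 (1.78), Gdpd2 (1.74), Cd209f (1.74), E030013I19Rik (1.67), and Igf2 given above. Tmprss2, Igfbp5 and Cd209f lost the call without any of several tumors (adjusted p up to 0.0609, 0.0621 and 0.0678). Gdpd2 had the tightest of these differences, at 12.1, 15.2, 10.8 and 11.0 CPM in PI3Ki against 33.2, 40.7, 31.2 and 58.5 CPM in SHP2i (adjusted p = 2.99e-05).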

How the data were processed

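Poly(A) RNA of whole tumors was sequenced as paired-end reads from a directional kit. After adapter removal with cutadapt, the authors used STAR in two-pass mode on GRCm38 and deposited, per tumor, whole-number counts per gene from qCount of QuasR. The counts are not normalized. The gene annotation, tool versions and strand setting of the counting are not given in the sources used here, so overlapping genes are named where they matter, and no reads were remapped. Of the Entrez identifiers, 22760 of 22792 matched a RefSeq symbol, and the other 32 held 0.0193% of counts. Totals of 21604291 to 26620104 counts per compared tumor set the precision of low genes.

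Tumors were grouped by their GEO labels, which give 1 treatment and 1 replicate number for each tumor, and the study counts its tumors as animals. The 2 inhibitor groups were contrasted in a fit with 1 mean per group over all 18 tumors, using edgeR 4.0.16 in R 4.3.3. Genes were kept by filterByExpr (minimum count 10, minimum total 15), scaled by TMM and tested by the quasi-likelihood F test with Benjamini-Hochberg adjustment. The limits were an adjusted p of 0.05 and, for calls over the table, a log2 fold change of 1. The SE is the log2 fold change, computed with edgeR's default prior count, divided by the square root of F. A prior count of 2 was used for log2 CPM values. The p-values compare tumors and do not separate compound from dose and schedule.

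The named genes were those with the 15 largest changes in each direction (called, mean log2 CPM over 1, groups apart), in each of 27 lists the 4 members of lowest p and the 1 most expressed, the drug target and PDGF genes, and every counted member of lists with 5 or fewer counted. Members and lists (543 genes, 533 of them tested) were chosen with earlier results of these data known. Where further list members are named, as for the sterol, FOXO, PI3K and complement genes, or genes outside the lists in the closing section, they were chosen after their values were seen. Some list members are counted but not reported here by name.

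On simulated counts for 15161 genes of this contrast, the test recovered 85.7% of genes changed by 1.5, 98% by 2, 94% by 3 and 96% by 4 on the log2 scale, with 1 false call. The changed genes had random directions and all others were held equal between groups. Differences below 1.5, as most of those named here, and differences in cell content were not simulated. Ratios of raw counts carry exact binomial 95% intervals, which cover counting error only. Promoters and positions came from RefSeq on GRCm38.p6. The alternatives were DESeq2 1.42.0, limma 3.58.1 voom with quality weights, other scalings, filters, tests and covariates, a replicate block, the 8 tumors alone and each tumor left out.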

Additional observations from a re-analysis of the deposited data

Results flagged for a closer look

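Values in which 1 of the 4 tumors of a group stood far from the other 3 were sought by Dixon's ratio of that gap to the group's range, at its 95% critical value. Of 372 groups of 4 values tested, 24 passed it, and chance alone gives about 1 in 20. For the means of gene lists, in log2 CPM relative to Vehicle, SHP2i replicate 5 was apart for receptor tyrosine kinase ligands (0.443 against 0.287 to 0.3), SHP2i replicate 3 for endothelial cells (0.351 against -0.176 to -0.11) and SHP2i replicate 4 for epithelial carcinoma cells (-1.11 against 0.369 to 0.579).

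The rest are levels of single genes in log2 CPM, with the range of the other 3 tumors of the group. In SHP2i replicate 3 these were Fscn1 (9.46 against 9.09 to 9.12), Esm1 (5.58 against 4.57 to 4.7), Mcam (7.26 against 6.66 to 6.72), Klrb1c (-0.887 against -0.06 to 0.035), Gdnf (2.59 against 3.12 to 3.19) and Ephb2 (2.26 against 3.48 to 3.72). In SHP2i replicate 4 they were Erbb2 (5.21 against 5.48 to 5.53) and Ibsp (-3.56 against -3 to -2.94). In SHP2i replicate 5 they were Myh1 (-2.52 against -3 to -2.94) and Pthlh (-2.95 against -1.26 to -0.924).

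In PI3Ki replicate 1 they were Siglech (-0.467 against 1.63 to 1.78), Pdgfa (7.55 against 7.3 to 7.31) and Sox17 (1.57 against 2.19 to 2.25). In PI3Ki replicate 2 they were Retnlg (6.22 against 3.16 to 3.43), Kcnj8 (3.45 against 2.66 to 2.78), Insr (6.11 against 6.42 to 6.48) and C1qa (9.58 against 8.6 to 8.74). In PI3Ki replicate 3 they were Pwwp3b (1.57 against 0.182 to 0.294), Dusp5 (3.73 against 4.13 to 4.15) and Mcm2 (6.88 against 6.53 to 6.57). In PI3Ki replicate 5 the muscle gene Atp2a1 was low (7.07 against 7.97 to 8.15). For Dusp5 the tumor that stood apart was the PI3Ki tumor nearest to SHP2i, and for Retnlg it was the tumor with the most Ngp.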

How the results depend on the processing

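The 212 higher and 801 lower genes stayed within 1.5 times under DESeq2 (226 and 888), RLE (208 and 804) or upper quartile scaling (198 and 819). So they did with no filter (216 and 874), a minimum of 1 CPM (178 and 713) and the 8 tumors alone (162 and 801). The likelihood ratio test (243 and 919), voom (262 and 753) and a B cell covariate (198 and 712) also stayed within it. Taking 119 genes that follow muscle out of the results, added after the data were seen and without a new fit, left 211 and 754. At most 119 calls could be lost that way, so it was no test of muscle content. Testing against the fold limit (glmTreat) left 9 and 178, and no fold minimum gave 1779 and 1959. A skeletal muscle covariate left 0 and 0 with edgeR (2174 genes at an unadjusted p under 0.05). Of the covariates added after the data were seen, macrophage genes gave 412 and 403 and neutrophil genes 171 and 356. Neither mean overlapped between the groups (macrophage at most -0.6 in SHP2i and at least -0.266 in PI3Ki, neutrophil at most -0.635 and at least -0.0614). Treatment and cell content are not cleanly separated in those fits, for calls lost or gained. With either, 5 of 17 ERK output and 9 of 20 FOXO genes passed as lower. Of 28 ligands, 9 (macrophage) and 7 (neutrophil) passed as higher. Leaving out 1 tumor gave 137 to 252 higher and 632 to 836 lower, and 137, without SHP2i replicate 5, was the one count beyond 1.5 times. The replicate block gave 184 and 815, and 16 of 159 calls of single genes that were followed were lost under it. The labels do not say whether same-numbered tumors share more than a number. Their deviations correlated at -0.219, 0.106 and 0.132 for replicates 2, 3 and 5, and those of differently numbered tumors at -0.373 to 0.361. So few pairs cannot decide whether a batch was shared.

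With the muscle covariate, 22 of the log2 fold changes of these genes or of others named changed sign, none past the test: Acta1 1.62, Myh1 5.57, Atp2a1 0.29, Spry4 -0.14, Klf6 0.057, Pdk4 0.66, Csf1r 1.12, Ccr2 0.12, Lyz2 0.39, Apoe 0.81, Slc16a3 0.53, Pik3cg 0.11, Pdgfa -0.35, Pik3cb 0.49, Pik3r5 0.23, C1qa 0.29, C1qb 0.55, C1qc 0.38, Mertk 0.025, Cxcl16 0.11, Il1b 0.16 and Prlr -0.0054. Ccnd1, not called, ran from -0.011 (without PI3Ki replicate 2) to 0.18 (without PI3Ki replicate 1). Of the same 159 genes, 116 passed without any 1 of the 8 tumors, 43 lost the call at least 1 time and 0 changed sign. The causes were not tested. Depth limits genes with few counts, such as Ibsp with 0 or 1 count in each SHP2i tumor.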

Other observations

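The genes in this section were named after their values were seen. Ptgs2, which codes for the prostaglandin synthase COX-2 (chromosome 1, 150100031 to 150108234, GRCm38.p6), measured 116, 96.9, 96.9 and 117 CPM in PI3Ki and 206, 228, 228 and 258 CPM in SHP2i. The difference of 1.11 ± 0.10 on the log2 scale had an adjusted p of 4.79e-06 with edgeR. Vehicle ranged from 115 to 133 CPM and Combo from 257 to 318 CPM, so both groups that received SHP099 lay above both groups that did not.

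A few genes known from bone, picked for their values, were lower in SHP2i. Dmp1, a matrix protein gene of osteocytes, measured 91.6, 13.1, 65.8 and 50.4 CPM in PI3Ki and 2.33, 0.411, 2.42 and 1.16 CPM in SHP2i (-5.11 ± 0.65, adjusted p = 6.54e-05), with Vehicle between 16.7 and 50.3 CPM and Combo between 2.28 and 8.81 CPM. Its chromosomal neighbor Ibsp, bone sialoprotein, had 154, 28, 78 and 68 counts in PI3Ki and 1, 1, 0 and 1 counts in SHP2i. That is a ratio of 102 after scaling, with a 95% interval for counting error of 34.6 to 497. Phex, a peptidase gene of mineralizing cells (-2.28), Pthlh, which codes for parathyroid hormone-related protein (-4.02), and Ocstamp, an osteoclast fusion gene (-2.77), were also lower. Ocstamp in PI3Ki (7.01 to 16.9 CPM) overlapped Vehicle (10.2 to 19.3 CPM), and in Combo it was at 0.268 CPM or less.

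H19, an imprinted RNA next to Igf2, went the other way from Igf2. It measured 175, 275, 131 and 130 CPM in PI3Ki and 42.1, 47.4, 45.9 and 33.1 CPM in SHP2i (-2.08 ± 0.31, adjusted p = 0.000218), while Igf2 differed by 2.21. H19 overlaps Mir675. Another imprinted gene, Peg3, was higher in SHP2i by 1.30 ± 0.28 (adjusted p = 0.00305).

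Some genes of hormone-responsive mammary epithelium were higher in SHP2i with wide spread. Pgr, the progesterone receptor gene, measured 0.279, 0, 1.06 and 1.87 CPM in PI3Ki and 11.8, 10.04, 0.791 and 6.94 CPM in SHP2i (3.19 ± 0.90, adjusted p = 0.0167). SHP2i replicate 4 lay within the PI3Ki range for Pgr, for the prolactin receptor gene Prlr (2.17), for Cited1 (2.73) and for Prom2 (2.84), and the epithelial list was also lowest in that tumor among the SHP2i tumors. Prlr and Cited1 lost the call without any of several tumors (adjusted p up to 0.103 and 0.0661). Saa3, an acute phase gene like Hp, was higher by 1.46 ± 0.47 (adjusted p = 0.0325), which reached 0.0814 without PI3Ki replicate 5.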
